A study of Mus musculus with 12 samples.

Results

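Liver transporters of the ABC, SLCO and SLC22 families were examined in bulk RNA sequencing of mouse liver. Members were all protein-coding genes whose symbol begins with Abca to Abcg, Slco or Slc22a and a number, less 1 gene that the rule leaves out. This gave 88 genes of the 47729 in the files, of which 49 are ABC, 14 SLCO and 25 SLC22 genes. The rule uses names only and no expression value, although the families were chosen for description with earlier results of these data known. The 12 livers were from male C57BL/6 mice, 4 in each of 3 groups. Healthy mice, labelled naive, were wild type, ate normal chow and received vehicle. STAM mice received streptozotocin, which damages insulin-producing cells, at day 2 after birth and a high-fat diet from week 4, and develop steatohepatitis (NASH) on a background of diabetes. STAM-vehicle mice received vehicle, and STAM-I-BET151 mice received 10 mg/kg of I-BET151, an inhibitor of the BET family of bromodomain proteins, orally once a day from week 6 to week 9. STAM and healthy mice therefore differ in diabetes and in diet at the same time, and the effects of each cannot be told apart. The vehicle was methylcellulose, whereas I-BET151 was suspended in hydroxypropyl methylcellulose with Tween 80, so compound and carrier cannot be told apart either.

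Hepatocytes take up bile acids, hormones and drugs from blood and release their products into bile or back into blood. Uptake across the blood-facing membrane is carried out by SLCO proteins (organic anion transporting polypeptides) and by SLC22 proteins, which carry organic cations, organic anions and carnitine. ABC proteins use ATP to export substrates, those on the bile-facing (canalicular) membrane moving phospholipid, cholesterol and conjugated compounds into bile. Other ABC proteins sit in peroxisomes, lysosomes or mitochondria, or at membranes where they load lipids onto lipoproteins.

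Counts of reads on genes totalled between 34711229 and 53365596 per mouse, and the members took between 0.417% and 0.755% of them. Levels are in CPM, which here means counts relative to the library size after TMM normalization. The 4 hepatocyte markers that could be matched summed to between 17537 and 111943 CPM. STAM-I-BET151 mouse 3 stood apart from the other 11 mice. Its 10 most abundant genes took 7.95% of the counts, against 13.5% to 18.0% in the others, and its hepatocyte markers summed to 17537 CPM, against 45719 to 111943 CPM in the healthy and STAM-vehicle livers. The study's methods leave out 1 I-BET151 sample without naming it, so all 4 mice were kept and results that depend on mouse 3 are given with and without it.

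Of the 88 members, 67 had enough counts to be tested. The other 21 were at or near 0, with 27 counts at most in any mouse, and 5 of them had no count in any mouse. Untested members included the kidney-type organic anion transporters Slc22a6 and Slc22a8 and the brain-type Slco1c1.

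Between STAM-vehicle and healthy livers, 3 uptake carriers of the SLCO family were lower, whereas 3 SLC22 and 2 ABCC genes of low abundance were higher. Adjusted p-values (edgeR's quasi-likelihood test, Benjamini-Hochberg over 16823 genes, called at 0.05) called 8 members higher and 5 lower in STAM-vehicle. Among all genes tested, 5.72% were called higher and 1.38% lower. Of those called higher, 7 are described here, namely Abca9, Abcb9, Abcc4, Abcc12, Slc22a3, Slc22a7 and Slc22a29. Those called lower were Slco1a1, Slco1a4, Slco2a1, Slc22a5 and Abca3. The median log2 fold change over the tested members was -0.08, and over all genes 0.0089. With each mouse left out in turn, 3 to 9 members were higher and 2 to 7 lower, except that 15 were higher and 16 lower without STAM-I-BET151 mouse 3, where 12% and 10.3% of all genes were called. This animal belongs to neither group, but all 12 mice share the estimate of the spread. Leaving it out also changed the genes tested (16967) and the normalization, and the part of each in the change was not tested. The lowest counts, 3 and 2, came without healthy mouse 3 or STAM-vehicle mouse 3, where 2.66% and 2.73% of all genes were called higher and 0.51% and 0.482% lower. With sequencing lane as a covariate no member was called in either direction (0.196% of all genes higher and 0.0238% lower). All 13 kept their direction in that fit. Lane 8 held healthy mice only, and lanes 4, 6 and 7 held no healthy mouse. In lane 2, which held 1 mouse of each group, 13 of the 13 differed in the called direction. The calls rest on these same mice, and the groups did not overlap in any member shown, so this is no separate support.

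**Figure D1:**
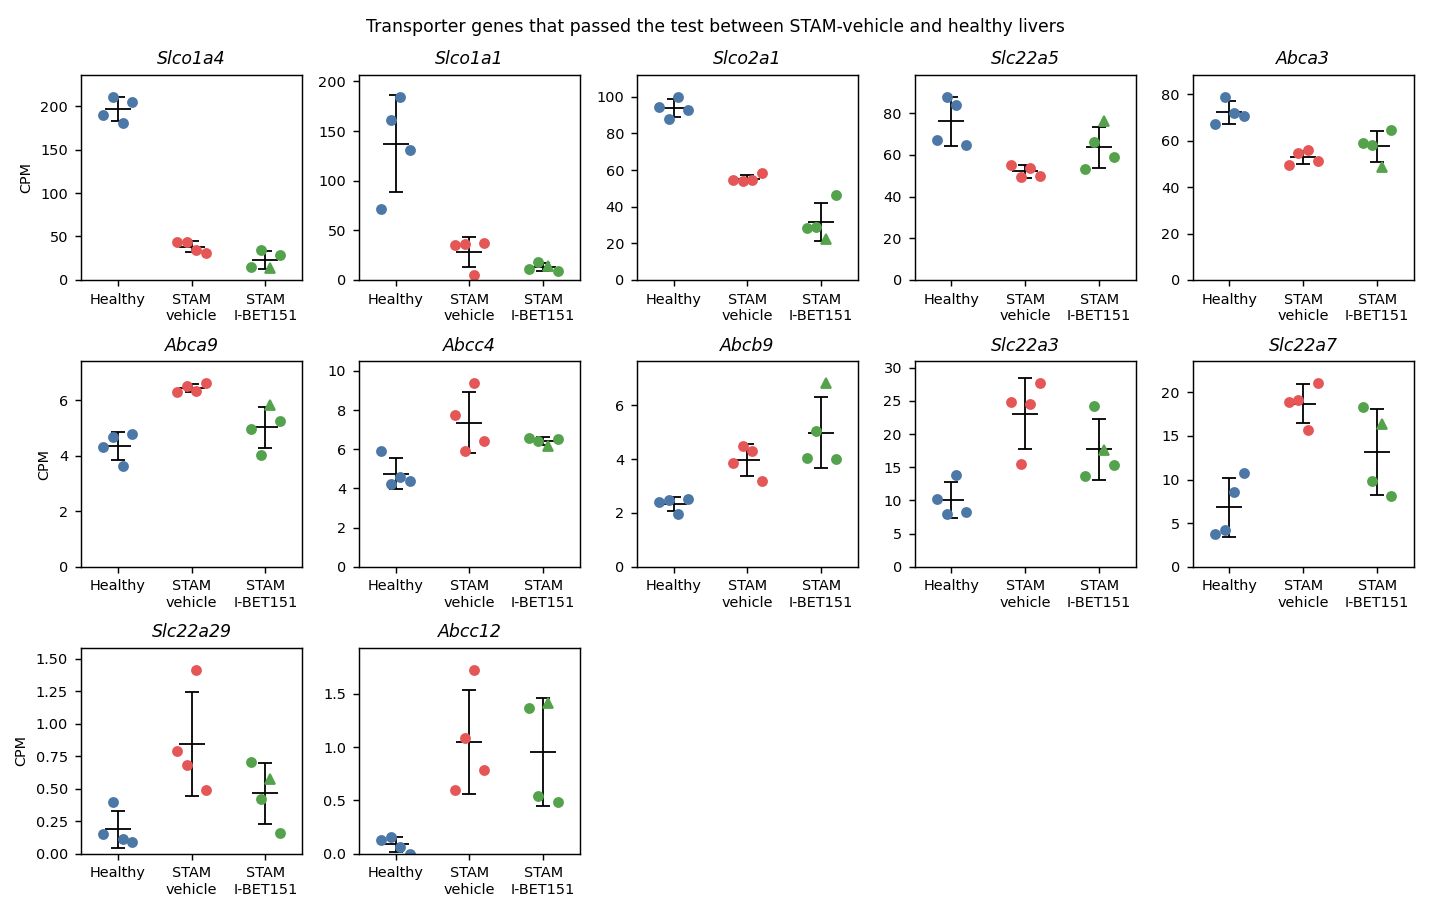
CPM (linear axes from 0) of 12 of the 13 members called between STAM-vehicle and healthy livers, with 1 point per mouse, the group mean as a bar and the SD over 4 mice as the error bar. Triangles mark STAM-I-BET151 mouse 3. In each of the 12 panels the 4 STAM-vehicle points lie entirely above or below the 4 healthy points, and Slco1a4 runs from a mean of 196.6 CPM in healthy livers to 38.4 and 22.9 CPM in the STAM groups.

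The largest falls were in a pair of neighbouring uptake carriers, Slco1a4 and Slco1a1. Slco1a4 (Oatp1a4, a carrier of bile salts, steroid conjugates and cardiac glycosides, at chr6:141805440-141856199, minus strand, GRCm38) measured 189.8, 211, 181 and 205 CPM in the healthy mice and 44.0, 43.4, 34.8 and 31.2 CPM in the STAM-vehicle mice. In the STAM-I-BET151 mice it measured 14.7, 34.4, 14.2 and 28.2 CPM. Both STAM groups were well below every healthy mouse, while the STAM groups overlapped with each other. The log2 fold change of STAM-vehicle against healthy was -2.36 (SE 0.26, adjusted p = 0.000237), which is 0.195 of the healthy level. It passed the threshold in each of the 12 fits that left out 1 mouse. Bulk RNA cannot tell fewer cells of a type from less RNA per cell, and the summed hepatocyte markers had a median of 101066 CPM in healthy and 56394 CPM in STAM-vehicle livers. None of the 4 hepatocyte markers was called in this fit. In the fit of only these 2 groups Alb, Apoa1 and Ttr were called lower (adjusted p = 0.0120, 0.0198 and 0.00258). Cps1 was not called there (adjusted p = 0.294). The same 3 passed without STAM-I-BET151 mouse 3 and by limma-voom. The part of the hepatocyte markers in the result was not tested.

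Slco1a1 (Oatp1a1, a carrier of sulfated steroids and bile acids that is more abundant in male than in female mouse liver, at chr6:141907282-141946962, minus strand) measured 71.5, 161, 185 and 131 CPM in healthy mice. It measured 35.0, 36.0, 4.97 and 36.9 CPM in STAM-vehicle mice and 10.97, 18.6, 14.5 and 8.57 CPM in STAM-I-BET151 mice. Every healthy mouse lay above every STAM mouse, and STAM-vehicle mouse 3 lay far below the other 3 of its group. The log2 fold change of STAM-vehicle against healthy was -2.28 (SE 0.49, adjusted p = 0.0140), and -1.93 without STAM-vehicle mouse 3, still past the threshold.

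Slco2a1 (the prostaglandin transporter, at chr9:102988712-103096002, plus strand) separated all 3 groups. It measured 94.6, 87.9, 100.1 and 93.0 CPM in healthy mice, 54.3, 53.9, 54.7 and 58.4 CPM in STAM-vehicle mice and 28.4, 28.7, 22.4 and 46.6 CPM in STAM-I-BET151 mice. No mouse of one group overlapped with a mouse of another. The log2 fold change of STAM-vehicle against healthy was -0.76 (SE 0.18, adjusted p = 0.0214), and it passed in 6 of the 12 fits with 1 mouse left out. The 7 endothelial markers summed to between 268 and 407 CPM in healthy, 302 and 386 CPM in STAM-vehicle and 290.1 and 399 CPM in STAM-I-BET151 livers. None was called between STAM-vehicle and healthy in the fit of all mice. Lyve1 was called higher in the fit of only these 2 groups (adjusted p = 0.0240), without STAM-I-BET151 mouse 3 (0.0376) and by limma-voom (0.00373). Limma-voom also called Pecam1, Cdh5 and Vwf higher. Kdr was lower without overlap but was not called. The part of endothelial cells in the result was not tested.

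Slco1b2 (Oatp1b2, the mouse counterpart of the human hepatic carriers OATP1B1 and OATP1B3, at chr6:141629518-141686646, plus strand) did not pass the test. Its values were 531, 1046, 1018 and 827 CPM in healthy, 779, 578, 589 and 533 CPM in STAM-vehicle and 713, 766, 304 and 479 CPM in STAM-I-BET151 mice, so that the 3 groups overlapped. Slco2b1, which carries steroid sulfates and many drugs, measured 165 ± 5.53 CPM in healthy and 139 ± 21.4 CPM in STAM-vehicle livers (SD, n = 4) and was not called either. Slco1a5 was near the limit of detection, with 13 to 21 counts per healthy mouse and 3 to 7 per STAM-vehicle mouse. Of the 8 SLCO genes tested, 3 were called lower and none higher in the fit of all mice, and 7 had a negative log2 fold change. Of all genes tested, 1.38% were called lower, 5.72% were called higher and 50.95% had a positive log2 fold change. Slco1a5 was also called lower by limma-voom, in the fit of only these 2 groups and without STAM-I-BET151 mouse 3. Limma-voom called Slco1b2 lower as well.

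Expressed per length (RPKM, CPM per kilobase of exon), Slco1b2 was the most abundant member in all 3 groups, at 174, 126 and 115 RPKM in healthy, STAM-vehicle and STAM-I-BET151 livers. The 4 tested SLCO1A and SLCO1B genes together came to 230.3 ± 57.7 RPKM in healthy, 137 ± 23.4 RPKM in STAM-vehicle and 121 ± 44.5 RPKM in STAM-I-BET151 livers (SD, n = 4). Slco1b2 made up 71.3% to 77.0% of that sum in the healthy mice, 89.6% to 94.9% in the STAM-vehicle mice and 92.5% to 97.1% in the STAM-I-BET151 mice. The shares of the healthy mice therefore lay below those of every STAM mouse. On the same scale Slco1a4 ranked 12th of the members in healthy, 27th in STAM-vehicle and 34th in STAM-I-BET151 livers, and Slco1a1 moved from rank 14 to ranks 30 and 37. Slco2a1, whose transcript is long, ranked 28th, 35th and 39th.

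**Figure D2:**
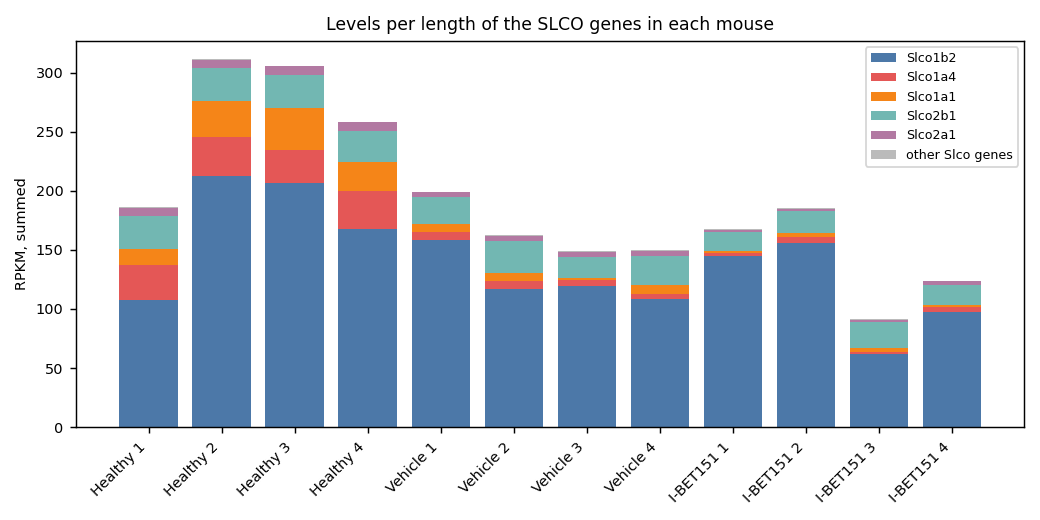
Levels per length (RPKM) of the SLCO genes in each of the 12 mice, stacked by gene. In the 4 healthy mice Slco1a4 and Slco1a1 form visible bands above Slco1b2, and in the 8 STAM mice these bands are thin, leaving Slco1b2 with 89.6% to 97.1% of the SLCO1A and SLCO1B sum.

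The promoters of these 3 neighbours are printed because the genes lie within 1 cluster but have different levels. Each sequence is the 250 bases before the RefSeq transcription start (RefSeq, GRCm38.p6), 5′ to 3′ on the gene's strand, with capitals marking letters searched on both strands, namely the TATA box TATAAA, the HNF1 motif GTTAAT, the STAT motif TTCNNNGAA and the HNF4 motif CAAAGTCCA. The windows are chr6:141629268-141629517 (plus strand) for Slco1b2, chr6:141856221-141856470 (minus strand) for Slco1a4 and chr6:141946963-141947212 (minus strand) for Slco1a1.
Slco1b2: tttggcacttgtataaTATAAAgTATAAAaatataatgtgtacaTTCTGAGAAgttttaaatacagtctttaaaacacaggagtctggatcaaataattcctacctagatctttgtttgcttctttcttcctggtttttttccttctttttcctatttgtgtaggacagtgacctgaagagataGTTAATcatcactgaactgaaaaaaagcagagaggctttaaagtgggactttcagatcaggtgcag
Slco1a4: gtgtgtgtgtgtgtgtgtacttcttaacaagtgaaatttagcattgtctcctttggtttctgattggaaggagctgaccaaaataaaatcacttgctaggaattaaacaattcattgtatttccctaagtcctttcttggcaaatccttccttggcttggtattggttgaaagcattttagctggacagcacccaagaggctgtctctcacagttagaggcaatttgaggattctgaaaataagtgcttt
Slco1a1: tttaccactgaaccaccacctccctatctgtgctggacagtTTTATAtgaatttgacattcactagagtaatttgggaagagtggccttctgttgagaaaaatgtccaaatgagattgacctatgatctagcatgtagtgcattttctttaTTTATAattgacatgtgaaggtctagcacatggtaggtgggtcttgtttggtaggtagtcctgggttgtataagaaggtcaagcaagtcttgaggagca
In this window Slco1b2 held 2 matches to TATAAA, 1 to GTTAAT and 1 to TTCNNNGAA, Slco1a1 held 2 matches to TATAAA and Slco1a4 held none of the 4 motifs. Over all 32851 RefSeq promoters, taken as 250 bases before and 50 after the start, 13.6% held TATAAA, 7.1% GTTAAT, 8.3% TTCNNNGAA and 0.475% CAAAGTCCA. The promoter of Slco1a4 was 47.6% identical to that of Slco1a1 and 46.8% to that of Slco1b2 over the 300-base windows, within the 42.4% to 50.6% found between promoters of the SLCO1 and the SLC22 genes. The matches are a description of the letters only.

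Among the SLC22 genes, 3 carriers of low abundance, Slc22a7, Slc22a3 and Slc22a29, were higher in STAM-vehicle livers. Slc22a7 (Oat2, an organic anion carrier of the blood-facing hepatocyte membrane, at chr17:46432183-46438457, minus strand) measured 3.77, 4.26, 8.52 and 10.7 CPM in healthy mice, 18.9, 19.2, 15.6 and 21.01 CPM in STAM-vehicle mice and 18.3, 9.82, 16.4 and 8.11 CPM in STAM-I-BET151 mice. Every STAM-vehicle mouse exceeded every healthy mouse, and the I-BET151 mice spanned both ranges. The log2 fold change of STAM-vehicle against healthy was 1.46 (SE 0.33, adjusted p = 0.0171), and it passed in 10 of the 12 fits with 1 mouse left out. Slc22a3 (Oct3, an organic cation and monoamine carrier, at chr17:12418960-12507704, minus strand) measured 10.2, 8.0, 13.9 and 8.31 CPM in healthy, 24.9, 15.4, 24.5 and 27.6 CPM in STAM-vehicle and 13.7, 24.2, 17.6 and 15.4 CPM in STAM-I-BET151 mice. Its log2 fold change was 1.19 (SE 0.23, adjusted p = 0.00783), and it passed in all 12 fits with 1 mouse left out. Of its exon bases, 9.31% overlap Plg on the opposite strand, whose mean was 2649 CPM in healthy and 2086 CPM in STAM-vehicle livers, and the strand setting of the counting is not given in the sources used here.

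Slc22a5 (Octn2, which brings carnitine into cells for fatty acid oxidation, at chr11:53864542-53891660, minus strand) was lower in STAM-vehicle livers. It measured 67.3, 88.0, 84.1 and 64.9 CPM in healthy, 55.4, 49.4, 53.9 and 49.7 CPM in STAM-vehicle and 53.3, 66.2, 76.1 and 59.1 CPM in STAM-I-BET151 mice. The healthy and STAM-vehicle mice did not overlap, with a log2 fold change of -0.55 (SE 0.14, adjusted p = 0.0340) that passed in 6 of the 12 fits with 1 mouse left out, whereas the I-BET151 mice overlapped with both. Its neighbours Slc22a21 and Slc22a4 had log2 fold changes of -0.45 and -0.19 and were not called in the fit of all mice. Slc22a21 was called lower by limma-voom, in the fit of only these 2 groups and without STAM-I-BET151 mouse 3. It shares 10.5% of its 101-base transcript words with Slc22a5.

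On chromosome 19, neighbouring SLC22 organic anion genes had changes of opposite sign. Of 5 tested genes in a row, Slc22a26, Slc22a27 and Slc22a29 had higher means in STAM-vehicle than in healthy livers, and Slc22a28 and Slc22a30 had lower means. Slc22a29, at chr19:8160165-8218900, was the gene called in the fit of all mice, from 0.15, 0.40, 0.12 and 0.09 CPM in healthy to 0.79, 0.69, 1.41 and 0.49 CPM in STAM-vehicle mice (log2 fold change 2.15, SE 0.54, adjusted p = 0.0288). These are 3 to 15 counts per healthy mouse and 23 to 73 per STAM-vehicle mouse, so the fold rests on few reads, and the call was made in 8 of the 12 fits with 1 mouse left out. Slc22a27 had a log2 fold change of 2.49 (adjusted p = 0.0591) that leaned on STAM-vehicle mouse 3, at 6.67 CPM against 1.25 to 1.44 CPM in the other 3. Slc22a26 had a log2 fold change of 1.89 (adjusted p = 0.106), again with its highest value, 5.71 CPM, in STAM-vehicle mouse 3. Slc22a27 was called higher by DESeq2, by limma-voom and with no low-count filter. It was also called in the fit of only these 2 groups and without STAM-I-BET151 mouse 3. Limma-voom called Slc22a26 higher too.

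Slc22a30, the most abundant of this row, at chr19:8335371-8405111, measured 43.9, 75.5, 57.4 and 74.6 CPM in healthy, 37.5, 36.0, 23.2 and 33.6 CPM in STAM-vehicle and 31.1, 25.6, 45.3 and 9.58 CPM in STAM-I-BET151 mice. No STAM-vehicle mouse reached the lowest healthy mouse, but the log2 fold change of -0.95 (SE 0.34) had an adjusted p of 0.117. Slc22a28, at chr19:8062209-8131982, gave -1.24 (SE 0.39, adjusted p = 0.0738), at 4.45 to 7.76 CPM in healthy and 1.45 to 3.58 CPM in STAM-vehicle mice. Both passed by DESeq2, by limma-voom, without STAM-I-BET151 mouse 3 and in the fit of only these 2 groups, in which 12.9% of all genes were called higher and 11.1% lower. Slc22a28 shares 36.7% and Slc22a30 20.7% of its 101-base words, the length of a read, with the other, whereas Slc22a29 shares 6.07% with Slc22a27. The study's methods count uniquely mapped reads only, so read pairs that lie wholly in shared stretches would be missing from both counts.

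**Figure D3:**
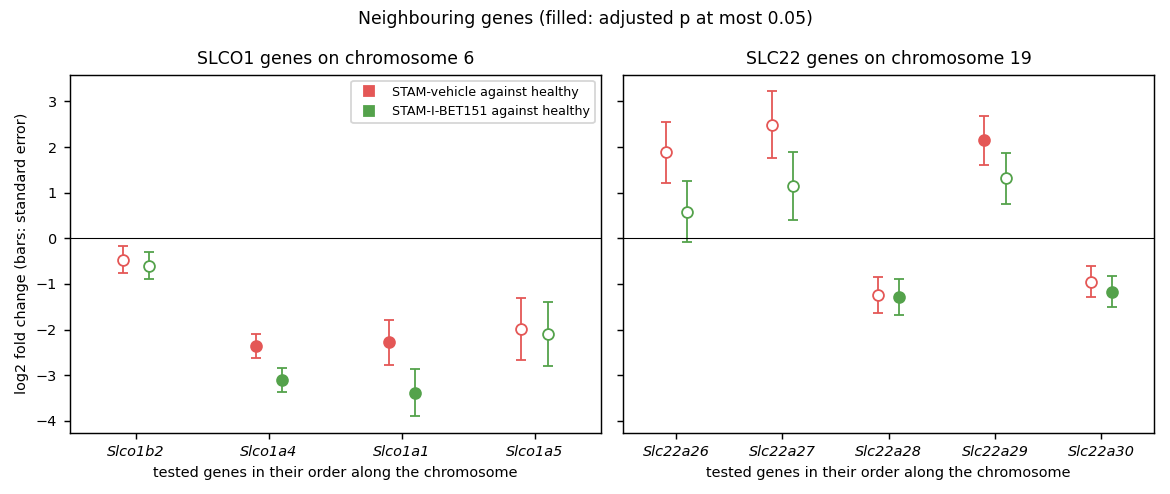
Log2 fold changes against healthy livers, with standard errors, of the tested SLCO1 genes on chromosome 6 and the tested SLC22 genes on chromosome 19, in their order along the chromosome. Red is STAM-vehicle, green is STAM-I-BET151, and filled symbols passed an adjusted p of 0.05. On chromosome 19 Slc22a29 sits at 2.15 in STAM-vehicle between its neighbours Slc22a28 at -1.24 and Slc22a30 at -0.95.

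The promoters of the last 3 genes of this row are shown because Slc22a29 and its neighbours on either side differ in direction. They are the 250 bases before each RefSeq start (RefSeq, GRCm38.p6, minus strand, 5′ to 3′), at chr19:8131983-8132232 for Slc22a28, chr19:8218901-8219150 for Slc22a29 and chr19:8405106-8405355 for Slc22a30. Capitals mark runs of 12 or more bases that all 3 share.
Slc22a28: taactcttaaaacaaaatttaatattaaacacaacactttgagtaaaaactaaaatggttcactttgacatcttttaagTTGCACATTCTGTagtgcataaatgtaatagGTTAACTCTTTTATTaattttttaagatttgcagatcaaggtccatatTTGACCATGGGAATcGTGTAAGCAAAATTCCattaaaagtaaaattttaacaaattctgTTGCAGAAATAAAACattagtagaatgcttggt
Slc22a29: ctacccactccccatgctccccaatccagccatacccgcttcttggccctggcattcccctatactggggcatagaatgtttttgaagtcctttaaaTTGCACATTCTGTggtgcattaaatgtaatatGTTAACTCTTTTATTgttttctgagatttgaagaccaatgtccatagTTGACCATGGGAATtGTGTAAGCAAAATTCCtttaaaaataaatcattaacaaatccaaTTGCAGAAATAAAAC
Slc22a30: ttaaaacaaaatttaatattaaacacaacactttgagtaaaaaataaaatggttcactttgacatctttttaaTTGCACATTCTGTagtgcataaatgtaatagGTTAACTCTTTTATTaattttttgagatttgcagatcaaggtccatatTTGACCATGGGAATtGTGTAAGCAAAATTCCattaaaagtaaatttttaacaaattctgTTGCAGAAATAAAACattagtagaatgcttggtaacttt
Each promoter held 5 such runs, together 73 bases, in the same order. Over the 300-base windows, the promoters of Slc22a28 and Slc22a30 were 94.1% identical, and that of Slc22a29 was 68.0% identical to the first and 65.3% to the second. Promoters of Slc22a26 and Slc22a27 were 43.2% to 51.1% identical to the others of the row. The pair with lower means in STAM livers had the most similar promoters, although neither passed edgeR's test of STAM-vehicle against healthy with all mice. The gene that was called higher shared part of the same sequence. These likenesses are a description of the letters only, and a link to the direction of change was not tested.

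Exporters of the canalicular membrane were not called in either direction in the fit of all 12 mice. Abcc2 (Mrp2, which exports bilirubin glucuronides and glutathione conjugates into bile) measured 777 ± 151 CPM in healthy and 744 ± 81.6 CPM in STAM-vehicle livers. Abcb4 (Mdr2, the phosphatidylcholine floppase of bile) measured 583 ± 97.2 CPM and 485 ± 24.1 CPM (SD, n = 4 each). The cholesterol exporters Abcg5 and Abcg8, which work as a pair, had log2 fold changes of -0.02 and -0.32, and Abcg2, an exporter of urate and drugs, -0.20. The drug exporters Abcb1a and Abcb1b pointed in opposite directions, Abcb1a at 0.90 (adjusted p = 0.120) and Abcb1b at -0.89 (adjusted p = 0.0553), both at low levels of 0.75 to 8.34 CPM. Abcb1b values were 1.28, 1.22, 2.12 and 1.96 CPM in healthy and 0.75, 1.07, 0.75 and 0.95 CPM in STAM-vehicle mice, without overlap. Abcb1b was called lower by DESeq2, by limma-voom, in the fit of only these 2 groups and without STAM-I-BET151 mouse 3, and without that mouse Abcb1a was also called higher and Abcg8 lower. Limma-voom also called Abcg8 lower. Abcb1a shares 8.92% and Abcb1b 5.96% of its 101-base words with the other.

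Among exporters of other membranes, 6 of the 7 ABCC genes had a positive log2 fold change and 2 were called higher. Of all genes tested, 50.95% had a positive log2 fold change and 5.72% were called higher. Abcc12 measured 0.13, 0.16, 0.06 and 0 CPM in healthy mice, 0.60, 1.09, 1.72 and 0.79 CPM in STAM-vehicle mice and 1.37, 0.54, 1.42 and 0.48 CPM in STAM-I-BET151 mice. Every STAM mouse was above every healthy mouse, at 18 to 89 counts against 0 to 6. Its log2 fold change of STAM-vehicle against healthy was 3.52 (SE 0.63, adjusted p = 0.00482) and it passed in all 12 fits with 1 mouse left out. Abcc4 (Mrp4, which exports bile acids and cyclic nucleotides to blood) measured 5.89, 4.21, 4.56 and 4.37 CPM in healthy and 7.74, 5.90, 9.36 and 6.43 CPM in STAM-vehicle mice, a log2 fold change of 0.63 (SE 0.17, adjusted p = 0.0399) that passed in 4 of the 12 fits. Abcc3 (Mrp3, the abundant exporter of glucuronides to blood) was not called, at 490.3 ± 64.0 CPM in healthy and 441 ± 50.8 CPM in STAM-vehicle livers (SD, n = 4). Abcc6, the gene mutated in pseudoxanthoma elasticum, was not called either, at 204 ± 9.55 and 212 ± 24.3 CPM.

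Among peroxisomal and lysosomal ABC genes, Abcd3 (the peroxisomal importer of branched-chain fatty acids and bile acid precursors), second of the members per length in healthy livers at 124 RPKM, went from 643, 877, 957 and 793 CPM to 543, 473, 448 and 492 CPM. The groups did not overlap, but the log2 fold change of -0.74 (SE 0.25) had an adjusted p of 0.0877. It was called lower by DESeq2, by limma-voom, in the fit of only these 2 groups and without STAM-I-BET151 mouse 3. The lysosomal peptide transporter Abcb9 rose from 2.34 ± 0.27 to 3.97 ± 0.58 CPM (log2 fold change 0.76, SE 0.20, adjusted p = 0.0388), and passed in 5 of the 12 fits with 1 mouse left out.

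Among genes of the lipid-exporting ABCA group, Abca3, known for loading surfactant lipids in the lung, fell from 72.2 ± 4.90 to 52.8 ± 2.89 CPM (log2 fold change -0.45, SE 0.11, adjusted p = 0.0307). It passed in 5 of the 12 fits with 1 mouse left out, and 9.75% of its exon bases overlap a transcript on the opposite strand. Abca9 rose from 4.34 ± 0.51 to 6.43 ± 0.15 CPM (log2 fold change 0.57, SE 0.15, adjusted p = 0.0374), and passed in 3 of the 12 fits with 1 mouse left out. The cholesterol exporters Abca1 and Abcg1 were not called in the fit of all mice. Abcg1 was called higher by limma-voom, in the fit of only these 2 groups and without STAM-I-BET151 mouse 3. Abca1, which loads cholesterol onto apolipoprotein A-I, measured 137 ± 26.6 and 129.6 ± 15.7 CPM, and Abcg1 6.36 ± 1.40 and 10.2 ± 2.57 CPM (SD, n = 4 each). The 4 mitochondrial and the 4 non-transporting ABC genes had negative log2 fold changes without exception, from -0.49 to -0.02, and none was called in the fit of all mice. At least 1 gene of each kind was called lower in each of the same 3 other fits.

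**Figure D4:**
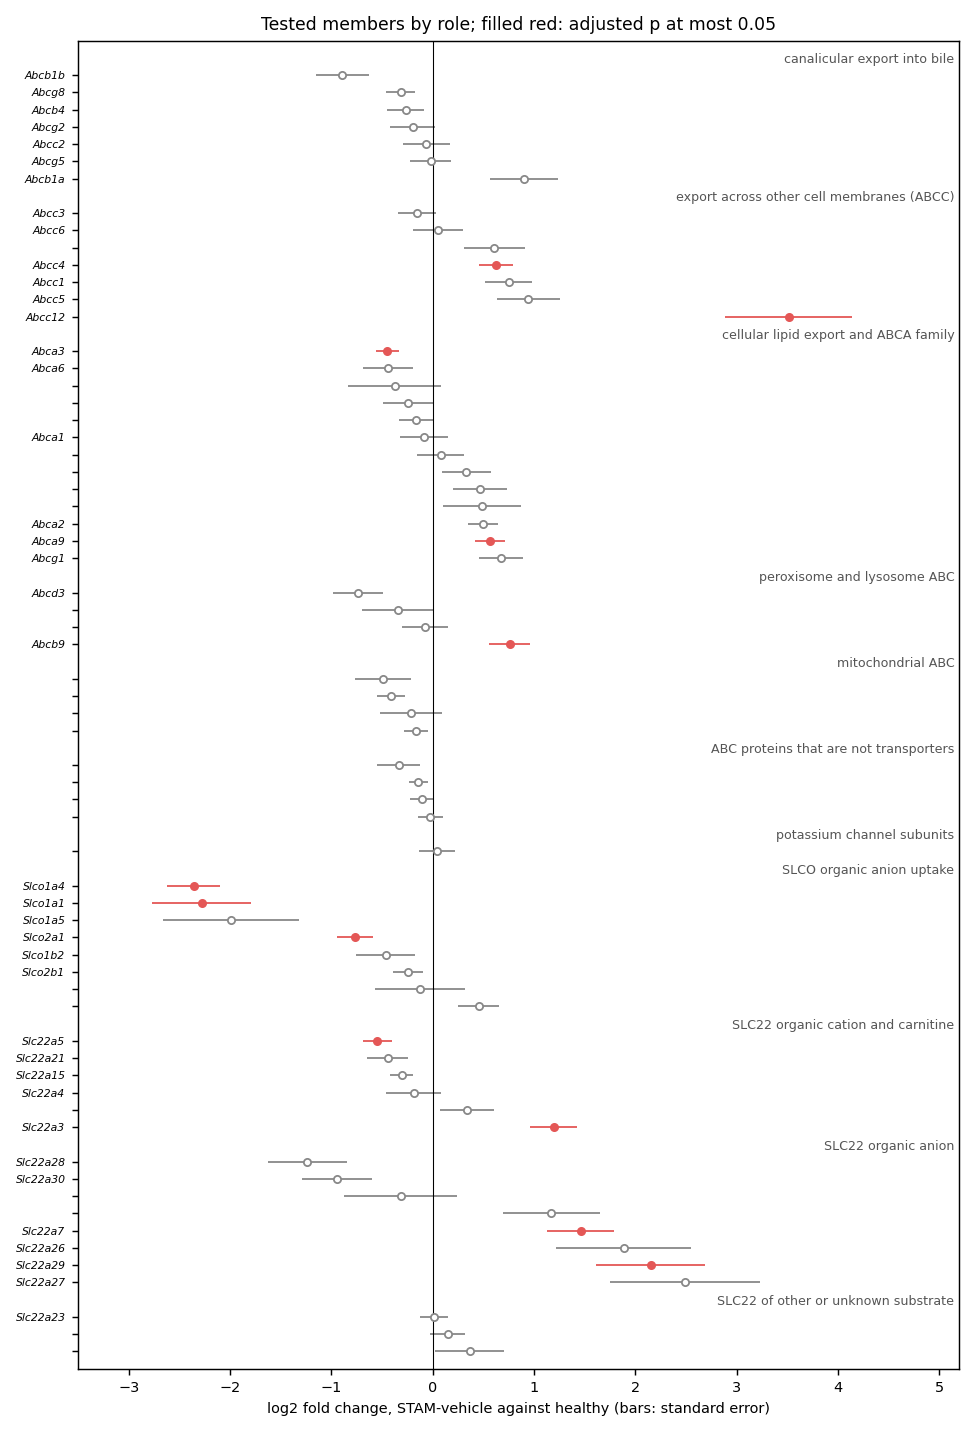
Log2 fold change of STAM-vehicle against healthy livers for 65 of the 67 tested members, grouped by role, with the standard error as bars and the genes described in the text labelled. Filled red symbols mark 12 of the 13 genes with an adjusted p of at most 0.05, 7 to the right of 0 and 5 to the left, with Slco1a4 at -2.36 and Abcc12 at 3.52 as the outermost of them.

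By separation of the groups, slightly more members were lower than higher, whereas the test called more members higher than lower. The 4 STAM-vehicle and 4 healthy values did not overlap for 11 members higher and 14 lower in STAM-vehicle of the 67, where 14.2% and 12.2% of all genes did so. Of 17 tested carriers of other families, 2 were called higher and 1 lower. The nucleoside carrier Slc28a1 had a log2 fold change of 2.45 (adjusted p = 0.0104), and Slc35b1, a nucleotide carrier of the endoplasmic reticulum, of 0.59 (adjusted p = 0.0239). The sodium-dependent bile acid carrier Slc10a1 was at 859 ± 80.5 CPM in healthy and 859 ± 111 CPM in STAM-vehicle livers (SD, n = 4) and was not called. Of 14 nuclear receptors and other regulators of transporter genes, 1 was called, Nr0b2 (SHP, the bile acid-induced repressor), at 47.1 ± 9.66 CPM in healthy and 20.1 ± 5.43 CPM in STAM-vehicle livers (log2 fold change -1.23, SE 0.32, adjusted p = 0.0328), which passed in 6 of the 12 fits with 1 mouse left out. Macrophage markers moved with disease, 4 of 7 being called higher and their sum going from 150.2 to 225 CPM in healthy to 257 to 475 CPM in STAM-vehicle livers. Further, 1 marker each was called higher among 7 of T and B cells, 5 of monocytes and neutrophils and 9 of stellate cells and fibroblasts, and none among those of cholangiocytes and endothelial cells. These are calls of edgeR's fit of all mice. No marker of any list was at 0 in all mice, and the part of other cells in the members' changes was not tested.

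I-BET151 against vehicle in STAM mice called no member in either direction at an adjusted p of 0.1, with 8 of the 67 at an unadjusted p under 0.05. Of all genes, 0.0951% were called higher and 0.256% lower. DESeq2 called none higher and 1 lower (0.318% and 0.589% of all genes), and limma-voom with sample weights 1 higher and 6 lower (3.09% and 4.07% of all genes). The lowest adjusted p among the members was 0.123, and log2 fold changes ran from -1.35 to 0.84 with a median SE of 0.23. In 57 of the 67 the log2 fold change was within 0.5 of 0. STAM-I-BET151 mouse 3 affected this comparison, because without it 1 member was called higher and 3 lower, where 0.914% and 1.46% of all genes were called. When the fit was also limited to the 2 groups, a setting chosen after seeing the data, 1 was called lower and none higher (1.09% and 0.4% of all genes). Leaving out STAM-vehicle mouse 3 or STAM-I-BET151 mouse 4 gave 1 lower call each. With all mice, the groups did not overlap for 2 members higher and 3 lower, where 2.41% and 2.63% of all genes did not overlap.

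Slco2a1 was the member with the smallest p. Its I-BET151 values of 28.4, 28.7, 22.4 and 46.6 CPM lay below the lowest vehicle value of 53.9 CPM, and the log2 fold change was -0.81 (SE 0.18, adjusted p = 0.123). It was -0.67 (SE 0.15, adjusted p = 0.0579) without mouse 3, and DESeq2 gave an adjusted p of 0.0118. The 7 endothelial markers had a median log2 fold change of -0.06 in this comparison, and none was called.

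Slco2b1 measured 138, 161, 110.2 and 146 CPM in vehicle and 94.5, 109, 133 and 99.8 CPM in I-BET151 mice, a log2 fold change of -0.35 (adjusted p = 0.523) with all mice and -0.45 (adjusted p = 0.0977) without mouse 3, the highest of its group. Slc22a23, a carrier of unknown substrate, measured 71.6, 79.0, 81.9 and 94.2 CPM in vehicle and 125, 128, 99.1 and 99.0 CPM in I-BET151 mice, a log2 fold change of 0.47 (adjusted p = 0.294) with all mice and 0.53 (adjusted p = 0.0691) without mouse 3. Abcb1b also separated the groups, at 0.75 to 1.07 CPM in vehicle and 1.15 to 1.92 CPM in I-BET151 mice (log2 fold change 0.84, adjusted p = 0.323).

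The members most altered in STAM-vehicle livers did not pass in this comparison with all mice in edgeR's fit. Slco1a4 had a log2 fold change of -0.75 (SE 0.25, adjusted p = 0.382) and Slco1a1 of -1.10 (SE 0.48, adjusted p = 0.535), both below and not above the vehicle mean. Limma-voom called Slco1a4 lower, and Slco1a1 passed in 1 of the 12 fits with 1 mouse left out. Slc22a7 was at -0.50 (SE 0.32) and Slc22a3 at -0.39. At these standard errors the comparison does not show that the levels were alike. None of the 17 other carriers or 14 regulators was called in edgeR's fit of all mice. At least 1 of these carriers was called lower without STAM-I-BET151 mouse 3 (log2 fold change -0.59, adjusted p = 0.0879). Limma-voom called it lower too (adjusted p = 0.0256).

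**Figure D5:**
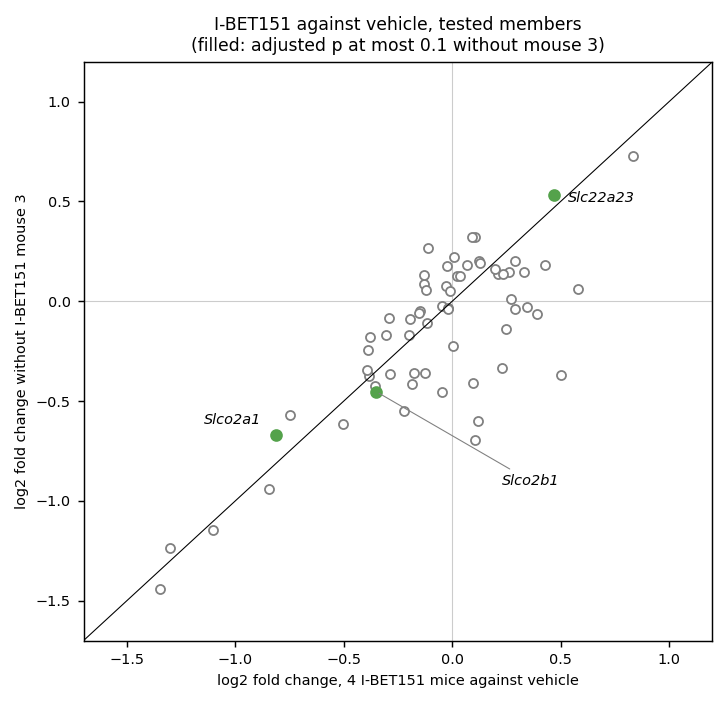
Log2 fold change of STAM-I-BET151 against STAM-vehicle for 65 of the 67 tested members, with all 4 I-BET151 mice (horizontal axis) and without mouse 3 (vertical axis). The line marks equal values. Filled symbols are 3 of the 4 genes with an adjusted p of at most 0.1 without mouse 3, Slc22a23 at 0.53, Slco2a1 at -0.67 and Slco2b1 at -0.45.

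STAM-I-BET151 livers were also compared with the healthy livers, the same 4 that served as reference for STAM-vehicle. In this comparison 7 members were called higher and 9 lower at an adjusted p of 0.05, where 9.88% of all genes were called higher and 5.25% lower. The higher members were Abca2, Abcb9, Abcc1, Abcc5, Abcc12, Slc22a3 and Slc22a23. The lower members were Slco1a1, Slco1a4, Slco2a1, Slco2b1, Slc22a15, Slc22a28, Slc22a30, Abca6 and Abcd3. Leaving out healthy mouse 2, 3 or 4, or STAM-I-BET151 mouse 1, brought the lower calls to 3 or 4, where 2.18% to 3.83% of all genes were called lower, and leaving out healthy mouse 3 or 4 brought the higher calls to 4, where 5.3% and 5.7% were called higher. Without STAM-I-BET151 mouse 3, 7 were higher and 13 lower, where 10.9% and 9.53% of all genes were called. With lane as a covariate none was called higher and 2 lower, Slco1a4 and Slco2a1 (0.398% and 0.107% of all genes), and all 16 kept their direction. In lane 2, 7 of 7 and 8 of 9 differed in the called direction, Abca6 being the exception. The lane 2 mice also took part in the calls, so this is no separate support. Markers of other cells moved in this comparison too. Of the macrophage markers 4 of 7 were called higher, of the stellate cell and fibroblast markers 4 of 9 higher and 1 lower, and 1 each of the endothelial, cholangiocyte, and monocyte and neutrophil markers higher. The 4 hepatocyte markers had a median log2 fold change of -0.78 without a call in edgeR's fit of all mice. Without STAM-I-BET151 mouse 3 their median was -0.52, and only Ttr was called lower (adjusted p = 0.0308). The part of these cells in the members' changes was not tested.

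All 4 of the more abundant SLCO carriers other than Slco1b2 were lower than in healthy livers. The log2 fold change was -3.38 (SE 0.52, adjusted p = 0.00136) for Slco1a1, -3.11 (SE 0.27, adjusted p = 3.34e-05) for Slco1a4, -1.58 (SE 0.18, adjusted p = 0.000268) for Slco2a1 and -0.60 (SE 0.15, adjusted p = 0.0178) for Slco2b1. In none of the 4 did a STAM-I-BET151 mouse reach the lowest healthy mouse. Slc22a28 and Slc22a30, the pair with near-identical promoters printed above, gave -1.28 (SE 0.39, adjusted p = 0.0415) and -1.17 (SE 0.35, adjusted p = 0.0369), and passed in 4 and 5 of the 12 fits with 1 mouse left out. Abcd3 gave -0.86 (SE 0.25, adjusted p = 0.0322) and passed in 7 of these fits, and Abca6 gave -0.82 (adjusted p = 0.0377) and passed in 6.

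Among the higher members, Abcc12 had a log2 fold change of 3.39 (SE 0.63, adjusted p = 0.00408), Abcb9 of 1.09 (SE 0.20, adjusted p = 0.00426) and Abca2, a lipid transporter of endosomes and lysosomes, of 0.76 (SE 0.15, adjusted p = 0.00549). Abcc1 (Mrp1, an exporter of glutathione conjugates) was at 1.86 to 3.72 CPM in healthy and 3.55 to 6.13 CPM in STAM-I-BET151 mice, a log2 fold change of 0.98 (adjusted p = 0.0145). Abcc5, an exporter of cyclic nucleotides, rested on mouse 3, at 30.2 CPM against 8.95 to 12.3 CPM in the other 3, and had an adjusted p of 0.0402 with it and 0.0683 without it. Slc22a3 and Slc22a23 rose by 0.81 (adjusted p = 0.0308) and 0.48 (adjusted p = 0.0339) on the log2 scale, and passed in 8 and 6 of the 12 fits with 1 mouse left out. Of the regulators, 3 of 14 were called lower, Nr0b2 (log2 fold change -1.87, adjusted p = 0.00276), the fatty acid sensor Ppara (-0.76, adjusted p = 0.0115) and the growth hormone receptor Ghr (-0.93, adjusted p = 0.0100). Of the other carriers, Slc28a1 and Slc35b1 were called higher, and 2 were called lower, among them the bile acid carrier Slc10a2.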

How the data were processed

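RNA from the livers of 12 mice was sequenced (TruSeq stranded mRNA, paired reads). According to the methods and the submitters' processing notes, reads were aligned to mm10 with STAR 2.5.1b and counted with HTSeq, although the deposited files are labelled featureCounts. The values deposited by the authors are raw read counts, 1 file a mouse, with no scaling applied. The annotation release and strand setting are not given in the sources used here.

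Groups came from the sample labels. Symbols, positions and exon lengths came from GENCODE M21 (GRCm38), which matched 47310 of 47729 identifiers. Counts were analysed with edgeR 4.0.16 in R 4.3.3, using TMM, filterByExpr (minimum count 10) and the quasi-likelihood test, fitted to all 12 mice together, with Benjamini-Hochberg adjustment over 16823 genes. Calls used an adjusted p of at most 0.05, or 0.1 for STAM-I-BET151 against STAM-vehicle. The SE is the log2 fold change divided by the square root of F. Alternatives were RLE scaling, DESeq2 1.42.0, limma-voom (limma 3.58.1) with sample weights, other count filters, 2-group fits, replicate block, lane, each mouse left out and the thresholds exchanged. RefSeq promoters matched 71 of the 88 members.

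Named were members past a threshold, a list of main liver transporters, and listed carriers and regulators that passed. Neighbours on chromosomes 11 and 19 and genes called only under an alternative were added with their values known. Members, lists and rules were chosen with earlier results of these data known. Pairwise chi-square per degree of freedom between mice of a group was 30.9 or more, so no library was a copy of another. Scripts were tested on simulated data. Total counts per mouse were 34711229 to 53365596. Replicate numbers were not treated as pairs in the main fit. Some genes of these families and lists are not reported here. Histology and RT-qPCR were not analysed here.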

Additional observations from a re-analysis of the deposited data

Results flagged for a closer look

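Within groups of 4 mice, 10 values among 114 gene and group combinations lay far from the other 3, where chance gives about 1 in 20. In healthy mouse 1, 3 ABC genes were low, Abca1 at 97.6 CPM against 147 to 152 CPM in the other 3, Abca6 at 127 CPM against 213 to 226 CPM, and Abcg8 at 116 CPM against 135 to 136 CPM. In STAM-I-BET151 mouse 3, 3 were high, Abcc5 at 30.2 CPM against 8.95 to 12.3 CPM, Abcc6 at 433 CPM against 184 to 204 CPM, and Abcg5 at 168 CPM against 88.5 to 94.2 CPM. The hepatocyte markers of that mouse summed to 17537 CPM, and its TMM factor, 1.61, lay outside the 0.770 to 1.11 of all other mice. The part of that in these values was not tested. Slc22a15 was high in healthy mouse 3, at 16.0 CPM against 14.5 to 14.6 CPM, and Slc22a23 in healthy mouse 2, at 93.2 CPM against 75.4 to 78.1 CPM. Slco1a1 was low in STAM-vehicle mouse 3, at 4.97 CPM against 35.0 to 36.9 CPM, and in the same mouse Slc22a27 was high, at 6.67 CPM against 1.25 to 1.44 CPM.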

How the results depend on the processing

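For members called higher and lower in STAM-vehicle against healthy (8 and 5), limma-voom gave 18 and 18 (18.9% and 14.8% of all genes), and the fit of only these 2 groups 14 and 14 (12.9% and 11.1%). DESeq2 gave 12 and 9 (4.74% and 1.66%), lane as a covariate 0 and 0, and the threshold of 0.1 13 and 10. The share of all genes past 0.1 was not counted in the comparisons with healthy livers, so the counts at 0.1 have no background. With each mouse left out the counts were 3 to 15 and 2 to 16. For STAM-I-BET151 against STAM-vehicle (0 and 0), limma-voom gave 1 and 6, and DESeq2, no low-count filter, and at least 10 counts in every mouse gave 1 lower each. Without STAM-I-BET151 mouse 3 and with only the 2 groups, a setting chosen after seeing the data, 1 was lower. With each mouse left out the counts were 0 to 1 and 0 to 3. For STAM-I-BET151 against healthy (7 and 9), limma-voom gave 12 and 14 (15.9% and 13.1% of all genes), only the 2 groups 4 and 3 (5.82% and 2.05%), the threshold of 0.1 13 higher, and lane 0 and 2. With each mouse left out they were 4 to 10 and 3 to 13. The cause of these shifts was not tested. Mice that share a number did not deviate together (mean r -0.0697, -0.0623 and -0.146 in the 3 comparisons, single values from -0.35 to 0.093). So few values cannot exclude a pairing. STAM-vehicle and STAM-I-BET151 mice 1, 3 and 4 shared lanes 6, 7 and 2. With the replicate block the counts were 4 and 3 for STAM-vehicle against healthy (3.81% and 0.6% of all genes). They were 0 and 0 for STAM-I-BET151 against STAM-vehicle (0.0119% and 0.0476%), and 4 and 4 for STAM-I-BET151 against healthy (6.33% and 3.02%). For the genes whose log2 fold change is given, 5 of 1205 alternative values changed sign, 198 lost and 49 gained the call. The sign changes were both in STAM-vehicle against healthy, where Abcg2 went to 0.37 with lane as a covariate, and Abcg5 to 0.0098 when 10 counts were required of each mouse, and to between -0.11 and 0.0753 with each mouse left out. Among named members with no log2 fold change given, 84 of 1323 alternative values changed sign and 43 gained the call. Depth limits the genes under 1 CPM, such as Abcc12 and Slc22a29.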
